A study of Mus musculus with 12 samples.

Results

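Okazaki fragment sequencing (OK-seq) of naive mouse embryonic stem cells (ESCs) was compared between a line with catalytically dead KMT2C and KMT2D (dCD, labelled double catalytic dead) and the control (labelled control KO). These are 4 of the 12 samples of the series, 2 replicates of each line, and the comparison was chosen by the labels alone. The study set out to learn which chromatin features predict the timing of DNA replication, in naive cells and as they leave that state. Its OK-seq part asked how the H3K4 monomethyltransferases KMT2C and KMT2D bear on replication origin firing. The other 8 samples are naive ESCs that lack both proteins (dKO) and epiblast-like cells (EpiLCs, labelled formative) of all 3 genotypes. According to the study's methods, the control lacks KMT2C only and keeps KMT2D, and all naive cells were grown in medium with LIF and inhibitors of MEK and GSK3. The dKO was made from that same KMT2C knockout line by induced deletion of KMT2D, on a mixed C57BL/6 and 129 background. The dCD line carries point mutations in the catalytic domains of both proteins and derives from R1 ESCs of 129 background, so that genotype and parental line cannot be told apart between dCD and control. In the processed tracks used here the 2 replicates of a condition are summed, and a difference between dCD and control has therefore no replicate check. These summed tracks allow no test between conditions, and every interval below is a 95% interval for counting error that compares libraries. The libraries carry no molecular identifiers, and several reads can stem from 1 molecule, so true intervals are wider. The assay reads DNA, and the labelled cell type could not be checked against markers.

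KMT2C (MLL3) and KMT2D (MLL4) place a single methyl group on lysine 4 of histone H3, mostly at enhancers, and are known for priming enhancers when pluripotent cells change state. Replication starts at origins and proceeds by forks in both directions. The lagging strand of each fork is made as short Okazaki fragments, which a pulse of the thymidine analog EdU labels. A fork moving right along the reference leaves Okazaki fragments on one strand and a fork moving left on the other. The share of reads on the Crick strand, C/(W+C), therefore reports the balance of rightward and leftward forks. A rise of this share from left to right marks a zone where replication starts, and a fall marks a zone where forks meet.

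Reads were counted in 1 kb bins of mm10 and summed in fixed windows of the autosomes. With at least 20, 200 and 2000 reads in both libraries, 46850 of 49245 windows of 50 kb, 4722 of 4916 of 500 kb and 483 of 484 of 5 Mb were measured. The control track held 4409068 reads and the dCD track 3655095, with a median of 89 and 74 reads per 50 kb window, 892 and 745 per 500 kb and 8757 and 7259 per 5 Mb. Over all autosomes, the Crick share was 49.93% in control and 49.97% in dCD. Chromosome X held reads amounting to 2.63% of the autosomal reads in control and 2.62% in dCD, and the EpiLC tracks of the same genotypes were deeper, with 11407678 and 13601460 reads.

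At sites of replication initiation, the Crick share rose more steeply in dCD than in control. The sequences of 3 such sites are shown, because they give the promoters next to the sharpest rises in a library that neither control nor dCD enters, the naive dKO. Each is the 300-base promoter in RefSeq, 5′ to 3′ on the gene's strand (GRCm38), and capitals mark CpG dinucleotides (CG, which reads the same on both strands).
Hnrnpf: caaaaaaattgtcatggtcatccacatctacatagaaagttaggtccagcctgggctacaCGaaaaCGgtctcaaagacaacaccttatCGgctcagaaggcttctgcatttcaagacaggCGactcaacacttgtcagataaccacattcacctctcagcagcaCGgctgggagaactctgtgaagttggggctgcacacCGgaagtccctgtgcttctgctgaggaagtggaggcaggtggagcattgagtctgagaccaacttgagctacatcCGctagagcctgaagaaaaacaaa
Prkaa1: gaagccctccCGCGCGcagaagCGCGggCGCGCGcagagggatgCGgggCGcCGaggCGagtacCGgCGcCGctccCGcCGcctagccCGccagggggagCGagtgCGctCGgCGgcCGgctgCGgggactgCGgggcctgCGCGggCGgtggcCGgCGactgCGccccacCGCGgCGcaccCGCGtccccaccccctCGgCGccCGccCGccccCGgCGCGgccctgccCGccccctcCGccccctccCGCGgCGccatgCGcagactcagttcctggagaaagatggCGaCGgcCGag
Foxd3: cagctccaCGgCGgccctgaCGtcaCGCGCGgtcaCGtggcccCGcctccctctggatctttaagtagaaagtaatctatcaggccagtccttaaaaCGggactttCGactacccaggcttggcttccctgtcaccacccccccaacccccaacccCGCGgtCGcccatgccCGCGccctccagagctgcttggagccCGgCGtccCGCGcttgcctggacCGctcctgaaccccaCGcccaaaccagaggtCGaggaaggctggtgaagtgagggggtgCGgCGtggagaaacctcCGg

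Beside Hnrnpf, which encodes an RNA-binding splicing regulator (promoter at chr6:117900090-117900389, plus strand), the Crick share in control was 32.3% (27.0 to 38.2) in the 100 kb to the left of the boundary and 75.2% (69.8 to 79.9) in the 100 kb to the right. In dCD it was 20.4% (15.8 to 25.9) and 71.7% (65.7 to 77.0), a step of 51.3 points against 42.9 points in control. Beside Prkaa1, which encodes the catalytic alpha 1 subunit of the energy sensor AMPK (chr15:5143611-5143910, plus strand), the share went from 35.5% (29.6 to 41.9) to 71.3% (65.0 to 76.8) in control and from 34.8% (27.9 to 42.4) to 86.3% (81.0 to 90.3) in dCD. The steps were 35.8 and 51.5 points. Beside Foxd3, a transcription factor of the pluripotent epiblast (chr4:99656049-99656348, plus strand), it went from 24.4% (19.5 to 30.1) to 68.3% (61.9 to 74.2) in control and from 24.2% (18.5 to 30.9) to 75.5% (68.3 to 81.4) in dCD, steps of 43.9 and 51.3 points. On 161 to 278 reads per side, the step in dCD minus that in control was 8.40 points (-2.36 to 19.2) at Hnrnpf, 15.8 points (3.54 to 28.0) at Prkaa1 and 7.34 points (-4.86 to 19.5) at Foxd3, so that only the difference at Prkaa1 was larger than its counting error. Boundaries were placed on the 50 kb grid of windows, and the gene starts lay 324 (Hnrnpf), 6139 (Prkaa1) and 6299 (Foxd3) bases from them. The promoters held 7 (Hnrnpf), 52 (Prkaa1) and 25 (Foxd3) CpG, against a median of 7 over 32544 promoters of the same length. A count as high as that of Prkaa1 was present in 0.581% of all promoters, one as high as that of Foxd3 in 18.6% and one as high as that of Hnrnpf in 52.4%.

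Across the genome, the Crick share departed further from 50% in dCD than in control at every window size. The size of these departures is given as the amplitude, the SD of the Crick share over windows after the variance from counting was taken off. In windows of 50 kb the amplitude was 12.6 points in control and 16.5 points in dCD, a ratio of 1.31 (1.304 to 1.316). In windows of 500 kb it was 8.004 and 11.6 points, a ratio of 1.45 (1.44 to 1.46), and in windows of 5 Mb 1.94 and 2.89 points, a ratio of 1.49 (1.44 to 1.54). The strand of the reads was thus more one-sided in the dCD library at all 3 window sizes, and the ratio was larger at 500 kb and 5 Mb than at 50 kb. The order of the wider sizes was not stable, since with no bins left out the ratio was 1.44 at 500 kb and 1.41 at 5 Mb. The naive dKO library had 13.3, 8.98 and 2.15 points at the same sizes, above control and below dCD at each. In EpiLCs, the amplitude was 9.72 points in control and 12.3 in dCD at 50 kb, 6.41 and 8.58 at 500 kb, and 1.56 and 2.08 at 5 Mb, ratios of 1.26, 1.34 and 1.33. These EpiLC libraries share no reads with the naive ones but come from the same lines.

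The windows themselves kept much of their order. Spearman's correlation of the Crick share between control and dCD was 0.810 over 46850 windows of 50 kb, 0.915 over 4722 of 500 kb and 0.899 over 483 of 5 Mb. Pearson's correlation was 0.814, 0.925 and 0.901. Both are a description across windows that share base composition and mappability. To measure the change of scale without the noise of either library inflating it, the covariance of dCD with the naive dKO was divided by that of control with the naive dKO. The quotient was 1.32 (1.31 to 1.33) at 50 kb, 1.46 (1.44 to 1.47) at 500 kb and 1.48 (1.43 to 1.54) at 5 Mb. With the EpiLC control in the place of the dKO it was 1.302, 1.44 and 1.47.

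The change grew with the strength of the polarity. Windows of 50 kb were divided in 10 groups by their Crick share in the naive dKO. In the lowest group the Crick share was 30.8% (30.7 to 31.0) in control and 25.2% (25.02 to 25.29) in dCD, a difference of -5.68 points (-5.87 to -5.49). In the highest group it was 69.2% (69.1 to 69.3) and 75.1% (75.0 to 75.3), a difference of 5.94 points (5.75 to 6.14). The 8 groups between ran in order, and the 5th and 6th, nearest to even polarity, differed by -0.32 and 0.80 points. The EpiLC libraries showed the same order, from 35.8% in control and 32.0% in dCD in the lowest group to 64.3% and 68.2% in the highest. Read share, the reads of a window as a part of all autosomal reads, differed little between these groups, with a ratio of dCD to control between 0.990 and 1.02.

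**Figure D1:**
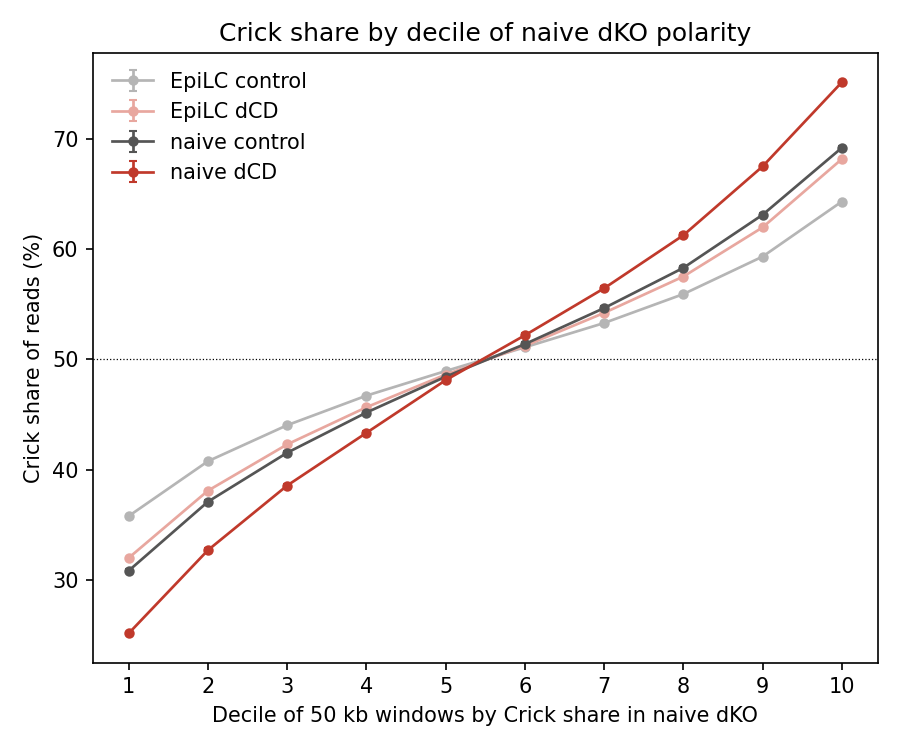
Crick share of reads (%, y axis) in naive and EpiLC control and dCD over 10 groups of 50 kb windows, ordered by the Crick share in naive dKO (x axis). Points are shares of summed reads and bars are 95% Wilson intervals, most of them smaller than the points. The naive dCD line runs from 25.2% to 75.1% and is the steepest, and the naive control line runs from 30.8% to 69.2%.

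The Crick share of neighbouring windows moved together over longer stretches in dCD. The covariance of 2 windows 100 kb apart was 73.5 points squared in control and 162 in dCD, and at 300 kb it was 12.6 and 43.6. At 400 kb it was near 0 in control (0.0019) and 13.3 in dCD. From 500 kb on the covariance was negative in all 3 naive libraries. At 500 kb it was -8.64 in control, -6.47 in dCD and -6.37 in dKO. Its lowest value was -13.7 in control, at 750 kb, and -29.0 in dCD, at 1000 kb. Apart from 500 kb, the naive dKO lay between control and dCD at every distance measured, with 97.2 at 100 kb and -16.3 at 1000 kb.

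**Figure D2:**
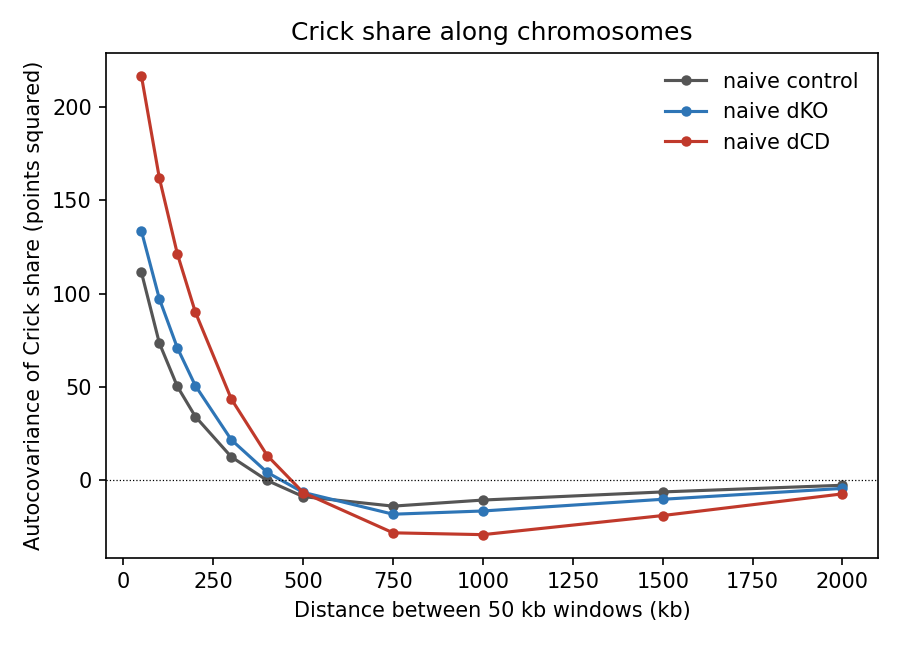
Autocovariance of the Crick share (points squared, y axis) between 50 kb windows at distances up to 2000 kb (x axis) in naive control, dKO and dCD. The dCD curve starts highest, at 216 at 50 kb against 111 in control, and reaches the lowest values, -28.0 at 750 kb and -29.0 at 1000 kb. No error bars are drawn, since each track is 1 library.

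Every autosome showed the larger amplitude in dCD. At 50 kb the ratio of dCD to control ran from 1.26 (chromosome 6) to 1.34 (chromosome 16), with counting SEs of 0.012 to 0.018, and at 500 kb from 1.37 (chromosome 14) to 1.52 (chromosome 16), with SEs of 0.020 to 0.032. In 500 kb windows of chromosome 16 the amplitude was 7.55 points in control and 11.5 in dCD, and in those of chromosome 14 it was 8.38 and 11.5. The highest amplitudes were on the gene-rich chromosome 19, with 8.66 points in control and 13.0 in dCD, and the lowest on chromosome 13, with 6.97 and 10.2. On all 19 autosomes dCD was also above the naive dKO at 50 and at 500 kb. By contrast, the Crick share of a whole autosome hardly differed. It was between 49.5% and 50.5% in control and between 49.5% and 50.8% in dCD, and the interval of the difference lacked 0 on chromosome 11 (0.40 points, 0.10 to 0.69), chromosome 17 (-0.49, -0.85 to -0.13) and chromosome 10 (-0.31, -0.61 to -0.0024).

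**Figure D3:**
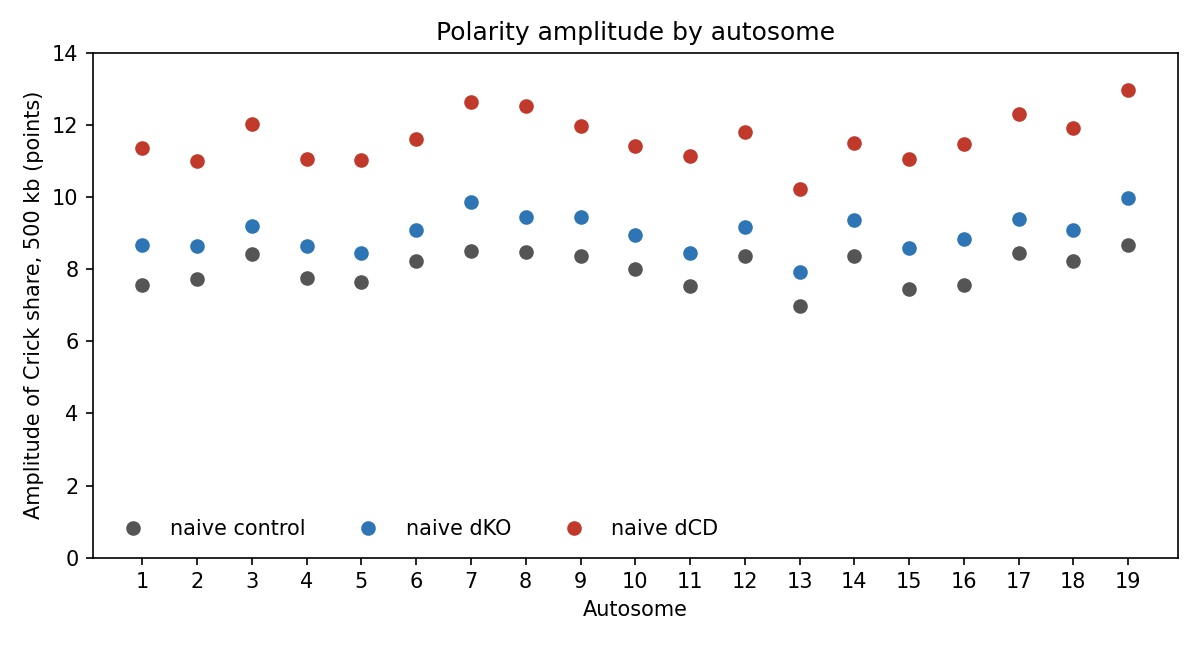
Amplitude of the Crick share in 500 kb windows (points, y axis, from 0) on each of the 19 autosomes (x axis) in naive control, dKO and dCD, 1 point per pooled library. The dCD points lie between 10.2 and 13.0, above all dKO points (7.92 to 9.99) and all control points (6.97 to 8.66).

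Mean steps of the Crick share were larger in dCD, both where it rose and where it fell. Boundaries were picked in the naive dKO as places where the Crick share of the 100 kb on the right exceeded, or fell below, that of the 100 kb on the left by at least 20 points. At 1932 rising boundaries the mean step was 23.4 points (SE 0.11) in control and 27.9 points (SE 0.12) in dCD, a difference of 4.51 points (4.19 to 4.82). The step was larger in dCD at 1371 of them (71.0%). At 1290 falling boundaries it was -16.5 points (SE 0.15) in control and -19.6 points (SE 0.16) in dCD, a difference of -3.02 points (-3.44 to -2.60), and 816 (63.3%) were steeper in dCD. The rise and the fall were steeper by nearly the same factor, 1.19 and 1.18. On each of the 19 autosomes the rise was larger in dCD, by 2.15 points (chromosome 6) to 5.99 points (chromosome 13), and the fall was deeper, by -0.37 points (chromosome 3) to -5.02 points (chromosome 10), with an interval that held 0 on chromosomes 3, 6, 13, 14 and 19. Boundaries picked in the EpiLC control gave 5.13 points (4.67 to 5.599) at 829 rises and -4.18 points (-5.15 to -3.22) at 228 falls.

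**Figure D4:**
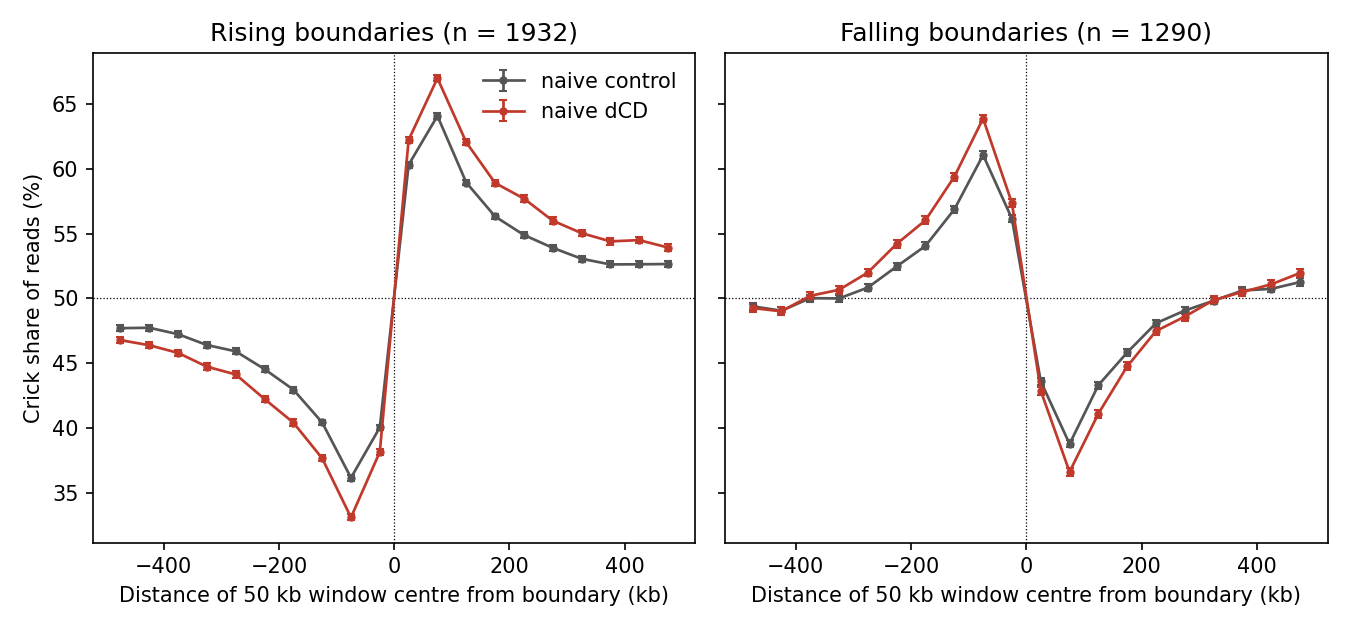
Crick share of reads (%, y axis) in 50 kb windows by the distance of their centre from a boundary (kb, x axis) in naive control and dCD, summed over 1932 rising boundaries (left) and 1290 falling ones (right) picked in naive dKO. Bars are 95% Wilson intervals. Next to rising boundaries the dCD profile runs from 33.1% to 67.0% and the control profile from 36.2% to 64.1%.

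At rising boundaries, the larger step in dCD was seen where a protein-coding gene started within 100 kb. Of the 1932 rises, 1397 had the transcription start site (TSS) of a protein-coding gene within 25 kb, as had 258 of the 1290 falls. Of all 46850 measured windows of 50 kb, 33724 held no such TSS. At these 1397 rises the step was 24.2 points in control and 29.4 in dCD, a difference of 5.22 points (4.86 to 5.58). With the nearest TSS at 25 to 100 kb, the step at 382 rises was 23.5 and 27.6 points, a difference of 4.14 points (3.42 to 4.86). At the 153 rises more than 100 kb from any such TSS it was 16.5 and 15.4 points, a difference of -1.06 points (-2.39 to 0.27), and 74 of them (48.4%) were larger in dCD. The difference between dCD and control was thus larger near a TSS than far from one by 6.28 points (4.91 to 7.66). The far rises were weaker as well, with a mean step of 24.5 points in the dKO that picked them, against 28.4 near a TSS. The contrast in points is therefore one between steps of unlike size. At the same boundaries in EpiLCs, the step was 16.8 points in control and 20.3 in dCD near a TSS, and 8.24 and 10.3 far from one. It was larger in dCD at both, by 3.49 and 2.05 points. Falling boundaries were deeper in dCD at both distances, with differences of -3.58 points (-4.53 to -2.63) within 25 kb of a TSS and -2.72 points (-3.39 to -2.05) beyond 100 kb.

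The windows with the largest differences were spread over the genome. In 50 kb windows the median counting SE of a difference was 7.48 points, and the Crick share was at least 25 points higher in dCD in 343 windows (percent called 0.732) and at least 25 points lower in 312 (0.666). In 500 kb windows, with a median SE of 2.42 points, it was at least 10 points higher in 127 (2.69) and lower in 129 (2.73). No 5 Mb window differed by 5 points or more in either direction (0 and 0 percent called, of 483). With the dependence of the Crick share on the excess of T over A in a bin taken off each library, 426 windows of 50 kb and 157 of 500 kb passed in both directions together. In 500 kb windows the SD of the difference was 5.195 points, above the counting SE, and the 95% interval lacked 0 in 35.9% of windows. Of these 127 and 129 windows of 500 kb, 240 (93.8%) had moved away from 50%, judged by the side on which the naive dKO lay, as had 73.7% of all measured windows. They lay on all 19 autosomes, with the most on chromosome 8 (15 higher and 10 lower). In EpiLCs, which did not enter this choice, 118 of the 127 and 122 of the 129 had the same sign, with median differences of 4.07 and -3.68 points. Of the 50 kb windows, 244 of 343 and 224 of 312 did, with EpiLC medians of 3.79 and -3.44 points against naive medians of 27.6 and -27.3, and 59.7% of all 50 kb windows shared their sign. Over all 4722 windows the naive and the EpiLC differences shared their sign in 70.2%, and their correlation was 0.578 over 500 kb windows and 0.259 over 50 kb windows, as a description. After the common change of scale was taken off each pair of libraries, 0.208 remained at 500 kb.

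The 5 windows of 500 kb with the highest difference were chosen by that value, and the EpiLC values beside them did not enter the choice. At chr7:13500001-14000000, which holds the sulfotransferase genes Sult2a4, Sult2a5 and Sult2a2, the Crick share was 44.4% in control and 65.4% in dCD, 21.0 points higher (14.6 to 27.2), and 50.2% and 60.6% in EpiLCs. At chr18:85000001-85500000, with no protein-coding gene, it was 57.2% and 78.0%, 20.7 points higher (15.2 to 25.9), and 51.2% and 63.7% in EpiLCs. The others were chr8:96500001-97000000, with no protein-coding gene (53.9% and 72.2%), chr11:9500001-10000000 with Abca13, a large lipid transporter of the ABC family (49.9% and 66.5%), and chr3:127500001-128000000 with Alpk1, Zgrf1 and Tifa (57.4% and 73.4%). ALPK1 and TIFA act in sequence in the sensing of bacterial sugars. The EpiLC difference was positive in all 5, from 4.81 to 12.5 points. Read share was lower in dCD in the windows of chromosomes 18 and 3, with ratios of 0.754 (0.668 to 0.850) and 0.721 (0.654 to 0.793). In the others the ratio was 0.932 to 1.09.

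At the other end, the Crick share at chr17:21000001-21500000, in a cluster of zinc finger genes with Zfp160, Zfp677 and Zfp51, was 51.5% in control and 34.4% in dCD, 17.2 points lower (-22.8 to -11.4). In EpiLCs it was 41.8% and 36.5%. At chr7:55000001-55500000, within Luzp2, it was 45.1% and 28.7%, and at chr5:88000001-88500000, which holds Smr2, Gm7714 and Ambn, the gene of the enamel protein ameloblastin, it was 40.2% and 24.1%. At chr18:60000001-60500000, with Gm4951, Smim3 and the interferon-inducible GTPase gene Iigp1, it was 32.4% and 17.1%, and at chr10:3000001-3500000, with Ppp1r14c and H60c, 48.7% and 33.6%. All 5 also fell in EpiLCs, by -4.85 to -9.97 points.

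At 5 Mb, the 3 lowest differences were all in the first window of a chromosome, next to the centromere. They were -4.94 points (-7.46 to -2.41) on chromosome 6, -4.82 points (-7.24 to -2.40) on chromosome 16 and -4.15 points (-6.65 to -1.63) on chromosome 1, with EpiLC values of -1.63, -1.37 and -3.54. These windows held 2776 to 3540 reads per library, against medians of 8757 in control and 7259 in dCD over the 5 Mb windows. Their counting error was therefore larger than that of most windows, which makes extreme values more likely. Summed over the first measured window of each of the 19 autosomes (on chromosome 14 the second, since its first held too few reads), the Crick share was 50.1% in control and 48.9% in dCD, lower in dCD in 12 windows and higher in 7. This sum was made after those 3 windows were seen and contains them, so it is a description only. In EpiLCs, which did not enter the choice, the same windows held 49.7% in control and 49.0% in dCD. The 3 highest were chr8:95000001-100000000 with Cdh8 (52.7% and 57.3%), chr18:85000001-90000000 with Dok6 (50.2% and 54.1%) and chr7:90000001-95000000 with Dlg2 (54.2% and 58.0%), and their EpiLC differences were 1.66, 0.32 and 0.69 points. The window on chromosome 18 was also the lowest of the measured 5 Mb windows in read share, with a ratio of 0.654 (0.628 to 0.682). Cdh8 encodes an adhesion protein of neurons and Dlg2 a scaffold of their synapses.

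The larger amplitude in dCD was seen in all classes of sequence, and at 50 kb it was smallest where GC content was lowest. In 50 kb windows of the lowest of 5 GC classes (median 37.1%) the amplitude was 9.44 points in control and 11.6 in dCD, a ratio of 1.23 (SE 0.011). In the other 4 classes the ratio was between 1.31 and 1.34. In EpiLCs it ran from 1.15 in the lowest to 1.32 in the highest class. By repeat content the ratio was between 1.28 and 1.34, and by the number of TSSs between 1.28 (1 TSS) and 1.35 (2 TSSs), with no order by number. At 500 kb it lay between 1.42 and 1.48 in every class of GC, repeat or TSS content, with 1.43 in the lowest GC class.

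The Crick share also depended on base composition within a few kilobases, and this dependence was only slightly larger in dCD. Bins of 1 kb with more T than A on the reference strand held more Crick reads than their neighbours. A pair of examples of each kind is shown, 120 bases of the reference strand (GRCm38), with T in capitals in the T-rich and A in capitals in the A-rich stretches. They were the most extreme bins with at least 5 reads in both libraries and little annotated repeat.
chr7:92661043-92661162: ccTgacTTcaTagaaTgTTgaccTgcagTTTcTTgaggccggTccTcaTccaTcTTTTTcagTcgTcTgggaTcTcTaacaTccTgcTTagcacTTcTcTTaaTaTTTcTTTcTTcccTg
chr3:104015046-104015165: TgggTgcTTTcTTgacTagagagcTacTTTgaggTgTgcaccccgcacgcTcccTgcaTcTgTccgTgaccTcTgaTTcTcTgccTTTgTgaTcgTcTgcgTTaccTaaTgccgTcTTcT
chr14:57521214-57521333: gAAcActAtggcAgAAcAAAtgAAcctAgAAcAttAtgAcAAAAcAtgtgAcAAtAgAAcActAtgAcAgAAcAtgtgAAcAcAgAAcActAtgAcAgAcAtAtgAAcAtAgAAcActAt
chr6:54709127-54709246: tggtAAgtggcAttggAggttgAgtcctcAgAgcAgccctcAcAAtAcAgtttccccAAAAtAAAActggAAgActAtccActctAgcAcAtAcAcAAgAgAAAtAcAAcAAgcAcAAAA

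The bin on chromosome 7, inside the mRNA 3′ end processing gene Pcf11, had 0 Watson and 6 Crick reads in control and 1 and 4 in dCD. The bin on chromosome 3, in Magi3 and Phtf1, had 0 and 6 reads in both libraries. The A-rich bin on chromosome 14, outside protein-coding genes, had 4 Watson reads and 1 Crick read in control and 5 and 0 in dCD, and that on chromosome 6 had 4 and 1 and 5 and 1. Over the tenth of bins with the largest excess of A, the Crick share was 21.1% (21.0 to 21.2) in control and 18.6% (18.5 to 18.8) in dCD, and over the tenth with the largest excess of T it was 78.8% (78.7 to 78.9) and 81.2% (81.0 to 81.3). The slope of the Crick share on the T minus A content, measured against neighbouring bins, was 1.76 points per percentage point (1.75 to 1.77) in control, 1.82 (1.81 to 1.83) in dCD and 1.70 (1.69 to 1.70) in dKO. The difference of dCD from control was 0.060 (SE 0.0051), while the EpiLC slopes were 1.201 and 1.41. With this dependence taken off each library, the amplitude was 8.87 points in control and 12.5 in dCD at 50 kb, 5.58 and 8.87 at 500 kb and 1.16 and 2.10 at 5 Mb. The ratios then were 1.41, 1.59 and 1.80, larger than before.

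Read share differed in long blocks, and the same blocks differed in EpiLCs. Each library was scaled to its autosomal reads. The distal end of chromosome 2, from position 165000001 on, held 31513 reads in control and 35652 in dCD, a ratio of 1.36 (1.34 to 1.39), against 1.0103 (1.005 to 1.016) over the rest of the chromosome. The EpiLC ratio there was 1.403 and that of the naive dKO to control 0.996. Distal chromosome 18, from position 80000001 on, held 16345 and 9285 reads, a ratio of 0.685 (0.668 to 0.703), against 0.993 (0.985 to 1.001) before it, with 0.620 in EpiLCs and 1.0095 for the dKO. Within these blocks, the 28 and 21 windows of 500 kb had ratios of 1.21 to 1.51 and 0.575 to 0.832. Both blocks were chosen after their values were seen. Whether the lines differ in DNA copy number there was not tested.

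On chromosomes 6 and 3 most windows were shifted. In 5 Mb windows the naive ratio ran from 0.9986 to 1.18 on chromosome 6 and from 0.830 to 0.987 on chromosome 3, and in 500 kb windows from 0.792 to 1.46 and from 0.660 to 1.103. Chromosome 6 had 257220 reads in control and 237291 in dCD, a ratio of 1.11 (1.11 to 1.12), with 1.06 in EpiLCs and 1.003 for the dKO. Chromosome 3 had 282489 and 215731, a ratio of 0.921 (0.916 to 0.926), with 0.942 in EpiLCs and 0.949 for the dKO. On the other 17 autosomes the ratio lay between 0.952 and 1.04, and on 18 of the 19 it was on the same side of 1 in EpiLCs. Of windows of 5 Mb, 24 held at least 1.1 times the read share of control (percent called 4.97) and 28 held it at most as low as the inverse (5.8). Of the 24, 20 lay on chromosome 6 and 4 on chromosome 2. The 28 lay on 8 autosomes, among them 10 on chromosome 3 and 4 each on chromosomes 4 and 15. The EpiLC ratio was on the same side of 1 in 24 of 24 and 27 of 28, against 70.6% of all 5 Mb windows. Without chromosomes 2, 3, 6 and 18, 16 windows passed in both directions together.

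**Figure D5:**
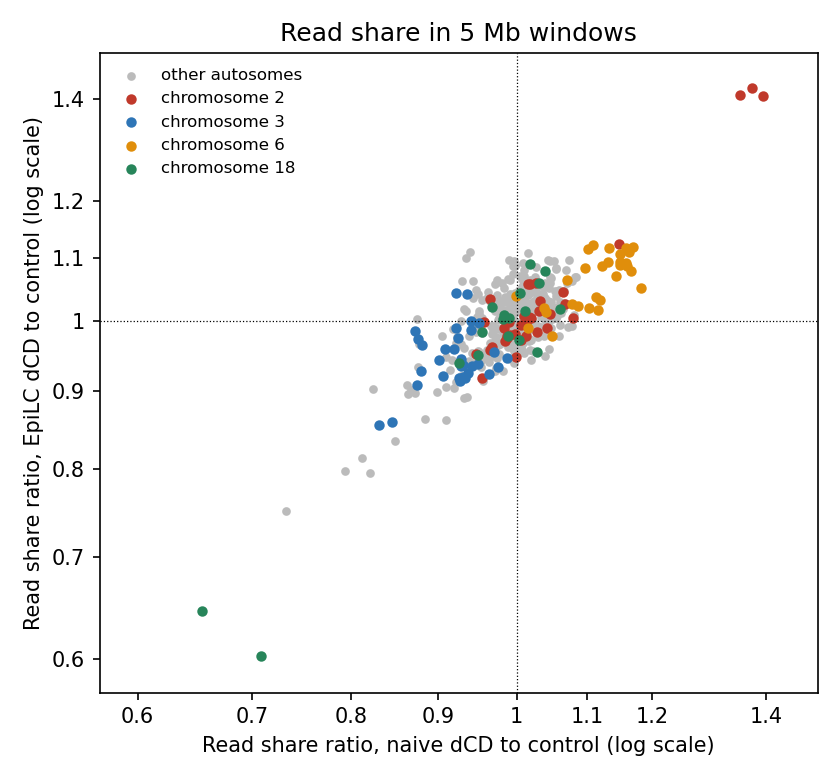
Ratio of the read share in dCD to that in control for 5 Mb windows of the autosomes, in naive ESCs (x axis, log scale) and in EpiLCs (y axis, log scale). Each point is 1 window, and 4 chromosomes are coloured. The 3 distal windows of chromosome 2 (1.35 to 1.39 in naive ESCs) and the 2 distal windows of chromosome 18 (0.654 and 0.708) lie at the ends in both states, next to 1 window of chromosome 4 (0.733).

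At 500 kb, 44 windows had at least a 25% higher read share (percent called 0.932), 27 of them on chromosome 2 and 13 on chromosome 6, and 106 had a read share as low as the inverse of that (percent called 2.24), 22 of them on chromosome 18, 16 on chromosome 3 and 14 on chromosome 14. In EpiLCs 44 of 44 and 105 of 106 lay on the same side of 1, against 62.6% of all 500 kb windows. Without chromosomes 2, 3, 6 and 18, 64 windows passed in both directions together. The highest ratios were 1.51 (1.38 to 1.65) at chr2:179000001-179500000 with Cdh4, 1.46 (1.35 to 1.59) at chr6:121000001-121500000 with Mical3, Iqsec3 and Slc6a13, 1.46 (1.35 to 1.58) at chr2:168500001-169000000 with Atp9a, Nfatc2 and Zfp64, 1.45 at chr2:165000001-165500000 with Cdh22, Slc13a3 and Elmo2, and 1.45 at chr2:170000001-170500000 with Bcas1, Tshz2 and Zfp217. The window on chromosome 6 had a ratio of 1.03 in EpiLCs, and the other 4 had 1.37 to 1.46. The lowest were 0.575 (0.50002 to 0.661) at chr18:85500001-86000000, 0.583 at chr18:89500001-90000000 with Dok6, 0.615 at chr18:80000001-80500000 with Pard6g, Kcng2 and Ctdp1, 0.621 at chr18:87000001-87500000 and 0.630 at chr14:109500001-110000000. All 5 were between 0.523 and 0.753 in EpiLCs. At 50 kb, 18 windows were at least 2-fold higher (percent called 0.0384) and 89 at least 2-fold lower (0.19). With the minimum of reads doubled, 16 windows passed in all, so that most called windows were below the doubled minimum in at least 1 library. A window lower in dCD can fall below it through the difference itself. The drop therefore cannot show that these calls rest on sparse windows. In EpiLCs 15 of 18 and 88 of 89 lay on the same side of 1, against 55.9% of all 50 kb windows.

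Some of the windows removed by the minimum of reads held few reads in dCD. At 500 kb, 19 windows reached 200 reads in control only and 0 in dCD only. The minimum is not scaled to depth and control is the deeper library, so these windows were selected toward low values in dCD, and their number is no measure of a change. Of the 19, 6 had a ratio of 0.5 or less, and the others ran from 0.622 to 1.07. Among the 6, 4 neighbouring windows at chr4:112000001-114000000 hold the Skint genes, a family of immunoglobulin superfamily genes whose founding member is needed for the maturation of a skin T cell lineage. They had 676, 612, 536 and 542 reads in control, 578, 508, 464 and 494 in the naive dKO, and 65, 152, 73 and 140 in dCD. The ratios of read share were 0.116 (0.0885 to 0.1497), 0.300 (0.249 to 0.358), 0.164 (0.127 to 0.210) and 0.312 (0.257 to 0.376), and in EpiLCs 0.0892, 0.284, 0.107 and 0.260. The 5 Mb window around them, chr4:110000001-115000000, had a ratio of 0.733 (0.705 to 0.761), with 0.7497 in EpiLCs and 1.02 for the dKO. Another window, at chr13:61500001-62000000 with Ctsm and Cts3, cathepsin genes of the placenta, had 556 reads in control and 139 in dCD, a ratio of 0.302 (0.249 to 0.364). A further one, at chr14:53000001-53500000, had 238 and 75, a ratio of 0.380 (0.289 to 0.495). The naive dKO had a ratio to control of 0.904 to 1.07 in these 6 windows, and the EpiLC dCD one of 0.0892 to 0.465. Parental line and genotype cannot be told apart here either. At 50 kb, 248 windows reached 20 reads in control only and 25 in dCD only, which the same selection favours. Of the 248, 122 had a ratio of 0.5 or less, and 115 of these were below 1 in EpiLCs.

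Around genes, the step of the Crick share was measured from the 50 kb window to the left to that on the right of the window with the TSS. Summed over 12898 such windows, it was 6.16 points in control and 7.41 in dCD, with an interval of the difference of 1.07 to 1.43. A total of 7 gene lists are set beside this. Over the 17 windows of the naive pluripotency genes it was 17.8 points in control and 24.8 in dCD (7.07 points, 2.60 to 11.5). The intervals of the other 6 lists held 0. The differences were 2.15 points for formative and primed genes, -1.21 for early lineage genes, 2.73 for H3K4 methyltransferase complexes, 3.91 for H3K4 demethylases, 2.74 for origin licensing and firing and -0.23 for lagging strand synthesis.

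The Crick share of the TSS windows themselves moved in both directions. Over 20102 measured genes the median difference was 0.30 points, and that of the lists lay between -1.53 (lagging strand synthesis, 23 genes) and 1.63 points (H3K4 methyltransferase complexes, 16 genes), apart from the 4 H3K4 demethylase genes, with 10.2. Kmt2c and Kmt2d, the targeted genes, keep their loci in a catalytic mutant, and the bins cannot show point mutations. At Kmt2c (TSS window chr5:25450001-25500000) the Crick share was 18.1% in control and 19.0% in dCD, and the read share ratio was 0.9496 (0.723 to 1.24). At Kmt2d (chr15:98850001-98900000) it was 39.5% and 28.4%, and the ratio was 1.13 (0.868 to 1.47). The intervals of the Crick share difference held 0 at both.

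The genes at the ends of each list are given with their shares on 54 to 162 reads a library, and they were chosen by their differences. Among 17 naive pluripotency genes, the share was lower in dCD at Sox2, a core pluripotency factor (50.6% in control and 38.1% in dCD), and at Tet2, which oxidizes methylated cytosine (34.2% and 24.1%), and higher at Klf4 (63.3% and 73.3%) and Prdm14 (59.2% and 72.9%), transcription factors of the naive state. The interval of the difference held 0 at Tet2 (-21.9 to 2.71) and Klf4 (-3.62 to 22.4). The EpiLC differences were -3.32, -1.04, -2.31 and -1.77 points. Among 17 formative and primed genes it was lower at Lef1, an effector of Wnt signaling (62.7% and 47.9%), and the de novo DNA methyltransferase gene Dnmt3b (62.5% and 49.0%), and higher at Etv4 (63.4% and 79.2%) and Grhl2 (47.2% and 71.3%), transcription factors, the latter of epithelial enhancers. In EpiLCs these 4 differed by -5.08, 8.19, 11.3 and 8.32 points. Among 14 early lineage genes it was lower at Hand1 (66.7% and 53.6%) and Cdx2 (57.8% and 49.5%) and higher at Mixl1 (49.5% and 52.4%) and Tbx6 (43.8% and 50%), and the interval held 0 at all 14.

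Among 16 genes of the H3K4 methyltransferase complexes, the share was lower at Wdr82, a subunit of the SET1 complexes (45.1% and 26.0%), and at Dpy30, a core subunit (47.7% and 35.2%), and higher at the methyltransferase gene Setd1b (56.6% and 64.8%) and at Rbbp5, a core subunit (54.3% and 66.3%). Wdr82 alone in this list had an interval without 0 (-31.0 to -6.41), and it differed by -10.8 points in EpiLCs. The 4 demethylase genes were all higher in dCD, with 47.9% and 56.5% at Kdm1b, 78.0% and 87.3% at Kdm5b, 59.8% and 70.9% at Kdm1a and 66.1% and 85.8% at Kdm5a. The interval lacked 0 at Kdm5a, and the EpiLC difference was -8.75 points at Kdm1b and 2.27 to 8.52 at the others.

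Among 29 genes of origin licensing and firing, Mcm6, a subunit of the replicative helicase, was the single listed gene past 25 points (51.5% and 76.6%, 25.1 points), against 136 of 20102 genes that were higher and 103 that were lower by as much. It differed by 2.01 points in EpiLCs. Mcm2, another helicase subunit, had 32.1% and 49.5%, and the share was lower at Gmnn, the gene of the licensing inhibitor geminin (53.0% and 36.4%) and Cdc45, a cofactor of the helicase (43.5% and 30.1%). The interval held 0 at Cdc45 (-26.0 to 0.33). These 3 went the other way in EpiLCs, by -6.46 points at Mcm2, 7.74 at Gmnn and 4.44 at Cdc45. Among 23 genes of lagging strand synthesis and Okazaki fragment maturation, it was lower at Rpa3, a subunit of the single-strand binding protein (70.1% and 52.9%), and Pold4, a small subunit of DNA polymerase delta (51.5% and 41.0%). It was higher at Prim2, the large primase subunit (18.9% and 32.6%), and Rnaseh2a, the catalytic subunit of RNase H2 (40.9% and 56.8%). The interval held 0 at Pold4 (-22.0 to 1.34). The EpiLC differences of the 4 were -6.58, -0.40, -4.60 and -6.88 points. In each list the interval lacked 0 at 0 to 3 genes with a higher and 0 to 2 with a lower share, against 1637 and 1484 of all 20102 genes. No listed gene differed in read share by 2-fold, while 3 of all genes were higher and 32 lower by as much. Its summed ratio was 0.933 (0.874 to 0.996) over the windows of the formative and primed genes, and the interval held 1 for the other 6 lists.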

How the data were processed

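OK-seq was measured in naive ESCs and EpiLCs, 2 replicates per condition. According to the authors' methods, reads were aligned to mm10 with Bowtie2 and binned by strand with published OK-seq scripts. FastQC, Trim Galore and Picard are named in the submitters' processing notes. Their versions, and whether duplicates were removed, are not given in the sources used here. The deposited signal tracks used here hold, for each condition, the strand coverage of 1 kb bins summed over 2 replicates, with library sizes not equalised. Multiplied by 1000, the values were whole reads to within 2.27e-13.

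A bin's position was taken as its end, because bins without reference sequence then held 0 reads, against 2317 otherwise. The 85 autosomal bins above 10 times the median of 15 reads over the 5 tracks used were left out. Depth was 3655095 to 13601460 reads per track. Crick share and read share were compared in windows of 50 kb, 500 kb and 5 Mb with at least 20, 200 and 2000 reads in both libraries. With summed replicates no test was made. Intervals at 95% are Wilson (shares), Newcombe (differences) and exact conditional binomial (read ratios). The formative dKO was not used.

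Genes are GENCODE M21 on GRCm38.p6, and promoters are from RefSeq. Named were the 5 most extreme windows of 500 kb and the 3 of 5 Mb each way, Kmt2c and Kmt2d, and the 2 genes at each end of 7 lists. The members and lists were chosen with earlier results of these data known. The methods were tested on simulated data. Alternatives changed the minimum of reads, the bins left out, depth (thinning), window position, the library used for the scale, chromosome X and the T minus A dependence. Python 3.11.15, NumPy 2.4.6, SciPy 1.17.1, pandas 2.3.3 and Matplotlib 3.10.9 were used.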

Additional observations from a re-analysis of the deposited data

Results flagged for a closer look

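The ratio of read share of dCD to control was lowest in the lowest GC class and highest in the highest in naive ESCs, and the reverse in EpiLCs, while by repeat content and by number of TSSs most classes lay on the same side of 1 in both states. Windows of 50 kb were put in 5 equal classes by GC content and by repeat content. In the class with the lowest GC content the ratio was 0.966 (0.962 to 0.969) in naive ESCs and 1.03 (1.03 to 1.04) in EpiLCs, so that the naive ratio was 0.934 times the EpiLC ratio. In the next GC class it was 0.994 and 1.02 (0.978 times), and in that with the highest GC content 1.03 and 0.984 (1.046 times). In windows with 3 or more TSSs it was 1.02 and 0.976 (1.048 times). In repeat class 2, counted from the lowest, it was 1.006 and 0.997 (1.008 times), and in repeat class 4 it was 0.984 and 1.005 (0.979 times). The outer repeat classes 1 and 5 had 1.03 and 0.978 in naive ESCs and 1.003 and 0.9997 in EpiLCs, with no trend in the latter, and windows with 0, 1 or 2 TSSs had 1.002, 0.997 and 0.993 in naive ESCs and 1.013, 0.979 and 0.966 in EpiLCs. These 6 classes were singled out because the counting intervals lay on opposite sides of 1. The difference between naive ESCs and EpiLCs was not tested, since the replicates of each track used here are summed.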

How the results depend on the processing

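No paired analysis was possible because the 2 replicates are summed in each track used here, and for the same reason no replicate could be left out. Over 14 results, 97 values were recomputed, of which 76 stayed within the 95% counting interval of the reported value or within 1.5 times the count, 21 moved further and 0 reversed. With the T minus A dependence taken off, the amplitude ratio was 1.41 at 50 kb, 1.59 at 500 kb and 1.80 at 5 Mb, the scale against dKO was 1.43, the windows past the Crick threshold were 426 of 50 kb and 157 of 500 kb, and the steps differed by 5.15 points at rises and -3.74 at falls. With no bins left out the amplitude ratio at 5 Mb was 1.41. With the EpiLC control in the place of the dKO the scale was 1.302. At 5 Mb, 1 window passed 5 points with dCD and control thinned to 1 depth, and 1 with chromosome X. With the minimum of reads doubled, 16 windows of 50 kb differed 2-fold in read share. Boundaries picked in the EpiLC control gave 5.13 and -4.18 points, those of at least 30 points 6.99 and -4.81, and moved windows -2.59 at falls. Without chromosomes 2, 3, 6 and 18, a choice made after seeing the data, the windows past the read share threshold were 68 of 50 kb, 64 of 500 kb and 16 of 5 Mb. The cause was not tested. Depth limits single 50 kb windows, where the counting SE of a difference was 7.48 points.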
